A study of Mus musculus with 12 samples.

Results

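The transcription factors that mark the ventral interneurons of the embryonic spinal cord were followed as 9 genes, *Evx1* and *Evx2* (V0), *En1* (V1), *Foxn4* and *Vsx1* (V2 precursors), *Sox14* (V2a), *Gata2* and *Gata3* (V2b), and *Sim1* (V3). They were chosen by name from the V0 to V3 classes and are 9 of 45777 genes in the tables. All 9 were listed above 0 in each of the 12 libraries, and all 9 passed the filter on low values, a mean abundance of at least 0.5 TPM (transcript abundance scaled to transcript length and to a fixed library total), in every comparison. The filter used TPM as deposited, whereas the values given below are TPM rescaled between libraries. On the rescaled values the brachial mean of *Foxn4* was 0.493.

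The libraries were total RNA from mouse ventral spinal cord at E12.5, depleted of ribosomal RNA. Tissue from an open-book preparation was trimmed around the *Hb9::GFP* reporter, which labels motor neurons (MNs), at the brachial (forelimb) or the lumbar (hindlimb) level. At each level 3 libraries came from *Isl2* +/- embryos (heterozygote) and 3 from *Isl2* KO embryos, which carry the null allele on both chromosomes in every tissue. The heterozygotes also carry one null allele and served as controls, so no group here is wild type. *Isl2*, a LIM homeodomain factor of MNs, is the targeted gene, and the ventral interneurons share the trimmed tissue with the MNs.

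Ventral interneurons arise from progenitor domains stacked above and below the MN domain, under the control of a Sonic hedgehog gradient from the floor plate. V0 cells are mostly commissural neurons of left-right alternation, V1 cells are inhibitory neurons that include Renshaw cells, V2a cells are excitatory neurons with ipsilateral axons, V2b cells are their inhibitory sisters, and V3 cells are excitatory neurons next to the floor plate. *Foxn4* and *Vsx1* belong to the brief precursor stage in which Notch signaling divides V2a from V2b cells, whereas the other 7 genes are kept in the postmitotic neurons for some time.

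The aligned sequence behind a library ranged from 4.48 to 6.64 Gb (gigabases). *Isl2* itself had rescaled TPM values of 8.73, 8.33, and 9.72 in the brachial heterozygotes and 6.04, 7.28, and 4.47 in the brachial KO libraries. At the lumbar level it had 10.3, 8.43, and 9.43 in the heterozygotes and 7.33, 6.53, and 8.24 in the KO libraries, so all KO libraries lay below all heterozygotes of their level (log2 differences −0.61 and −0.35, adjusted p = 0.359 and 0.999, limma). The gene-level signal was therefore lower in the KO libraries but not absent, and by itself it does not show a null allele. The paper describes this allele as exons replaced by a neomycin cassette, and a gene-level value does not tell which exons were read. *Hoxc8*, a *Hox* gene of the forelimb level, was at 132 to 183 TPM in the brachial and 12.8 to 18.2 in the lumbar libraries, and *Hoxd10*, of the hindlimb level, was at 124 to 215 in the lumbar and at most 0.0244 in the brachial libraries. *Mnx1*, which drives the *Hb9::GFP* reporter, was at 37.5 to 67.2 TPM and *Chat*, the acetylcholine-synthesizing enzyme of MNs, at 5.10 to 10.5, so both MN markers were present in every library. Transcripts of 4 Y-linked genes summed to 0 TPM in 5 libraries, brachial heterozygote 3, brachial KO 3, lumbar heterozygotes 1 and 3, and lumbar KO 2, and to between 125 and 137 TPM in the other 7. They were absent from 1 of 3 brachial and 2 of 3 lumbar heterozygote libraries, so these 2 groups cannot be the same 3 embryos. The sources used here do not settle whether each level had its own animals, and all libraries were treated as independent. Of the 6 brachial and lumbar pairs with the same genotype and replicate number, 3 differed in Y-linked transcripts. Levels were therefore not compared within embryos.

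TPM values divide by transcript length and can be set side by side between genes. Averaged over the 12 libraries, *Sox14* had the highest level of the 9 factors (7.44 TPM), followed by *Sim1* (7.02), *En1* (6.45), *Evx2* (4.45), *Evx1* (2.74), *Gata2* (2.26), *Gata3* (1.87), *Vsx1* (1.17), and *Foxn4* (0.946). This order did not hold in every group, since *Sim1* was above *Sox14* in both KO groups (6.38 and 6.34 TPM brachial, 8.95 and 8.06 lumbar), *En1* (8.62) was above *Sim1* (7.91) in the lumbar heterozygotes, and *Gata3* was above *Gata2* in both KO groups. The precursor genes *Foxn4* and *Vsx1* had the lowest means in all 4 groups. In the mean TPM order of all 45777 genes the 9 factors lay between percentiles 67.0 (*Foxn4*) and 78.5 (*Sox14*). Only 22983 to 24191 of these genes were above 0 in a library, and 16736 passed the filter over the 12 libraries. The many genes at or near 0 thus raise these percentiles. In mm10 coordinates the genes are at chr6:52313498-52318389 (*Evx1*), chr2:74652989-74661520 (*Evx2*), chr1:120602487-120607991 (*En1*), chr5:114254164-114274418 (*Foxn4*), chr2:150680702-150689137 (*Vsx1*), chr9:99874106-99876170 (*Sox14*), chr6:88193891-88207032 (*Gata2*), chr2:9857078-9887953 (*Gata3*), and chr10:50894698-50989156 (*Sim1*).

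Between the levels, *En1*, *Foxn4*, *Vsx1*, *Sox14*, and *Sim1* were higher in the lumbar than in the brachial cord, whereas the V0 and V2b genes did not pass the test. The promoters of the 5 genes that passed are shown because the comparison of levels turns on these genes, each as the 250 bases before a transcript start in RefSeq on GRCm38.p6, read 5′ to 3′ on the gene's own strand. For *Foxn4* and *Sim1* that start is not the outermost one, and the window lies inside the gene's span given above. Capitals mark CANNTG, the core to which basic helix-loop-helix proteins bind, which reads the same on both strands.
En1 (chr1:120602237-120602486, plus strand): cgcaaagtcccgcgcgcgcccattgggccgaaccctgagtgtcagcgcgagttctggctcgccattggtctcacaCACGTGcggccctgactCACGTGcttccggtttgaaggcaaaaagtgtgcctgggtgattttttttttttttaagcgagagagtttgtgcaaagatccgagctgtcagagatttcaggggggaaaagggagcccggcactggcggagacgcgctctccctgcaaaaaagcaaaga
Foxn4 (chr5:114273762-114274011, minus strand): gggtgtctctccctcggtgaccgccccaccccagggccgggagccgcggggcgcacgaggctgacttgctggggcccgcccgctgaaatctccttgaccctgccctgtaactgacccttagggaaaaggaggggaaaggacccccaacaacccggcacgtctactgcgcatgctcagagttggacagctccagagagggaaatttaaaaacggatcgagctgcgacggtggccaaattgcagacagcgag
Vsx1 (chr2:150689138-150689387, minus strand): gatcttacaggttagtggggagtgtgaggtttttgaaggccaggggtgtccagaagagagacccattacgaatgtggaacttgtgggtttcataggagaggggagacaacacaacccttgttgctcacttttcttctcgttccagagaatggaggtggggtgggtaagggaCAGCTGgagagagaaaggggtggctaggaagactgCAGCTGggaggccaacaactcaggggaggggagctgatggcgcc
Sox14 (chr9:99876171-99876420, minus strand): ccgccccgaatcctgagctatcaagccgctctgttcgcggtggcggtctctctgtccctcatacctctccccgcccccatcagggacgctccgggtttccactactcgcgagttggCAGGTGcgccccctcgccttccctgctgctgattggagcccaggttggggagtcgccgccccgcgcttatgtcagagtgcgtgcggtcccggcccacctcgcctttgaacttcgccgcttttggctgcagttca
Sim1 (chr10:50895401-50895650, plus strand): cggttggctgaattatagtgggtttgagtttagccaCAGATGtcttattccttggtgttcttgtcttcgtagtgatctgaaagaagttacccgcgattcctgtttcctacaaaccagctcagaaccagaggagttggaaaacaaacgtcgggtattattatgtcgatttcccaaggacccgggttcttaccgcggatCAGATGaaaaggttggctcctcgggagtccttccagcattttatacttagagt
At least one CANNTG stood in 4 of these 5 windows, 2 in *En1*, 2 in *Vsx1*, 1 in *Sox14*, and 2 in *Sim1*, and none in *Foxn4*. Of 32851 mouse promoter windows of the same length, 66.2% held it. Of the 5 windows of the V0 and V2b genes (*Gata2* has 2 starts), only the *Evx1* window held it. TAAT, the core bound by homeodomain proteins, was found on either strand in 54.9% of all windows and in those of *Vsx1* and *Sim1* among the 5 that passed, and of *Evx1* and *Evx2* among the genes that did not. These matches describe letters in the windows and no binding.

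**Figure D1:**
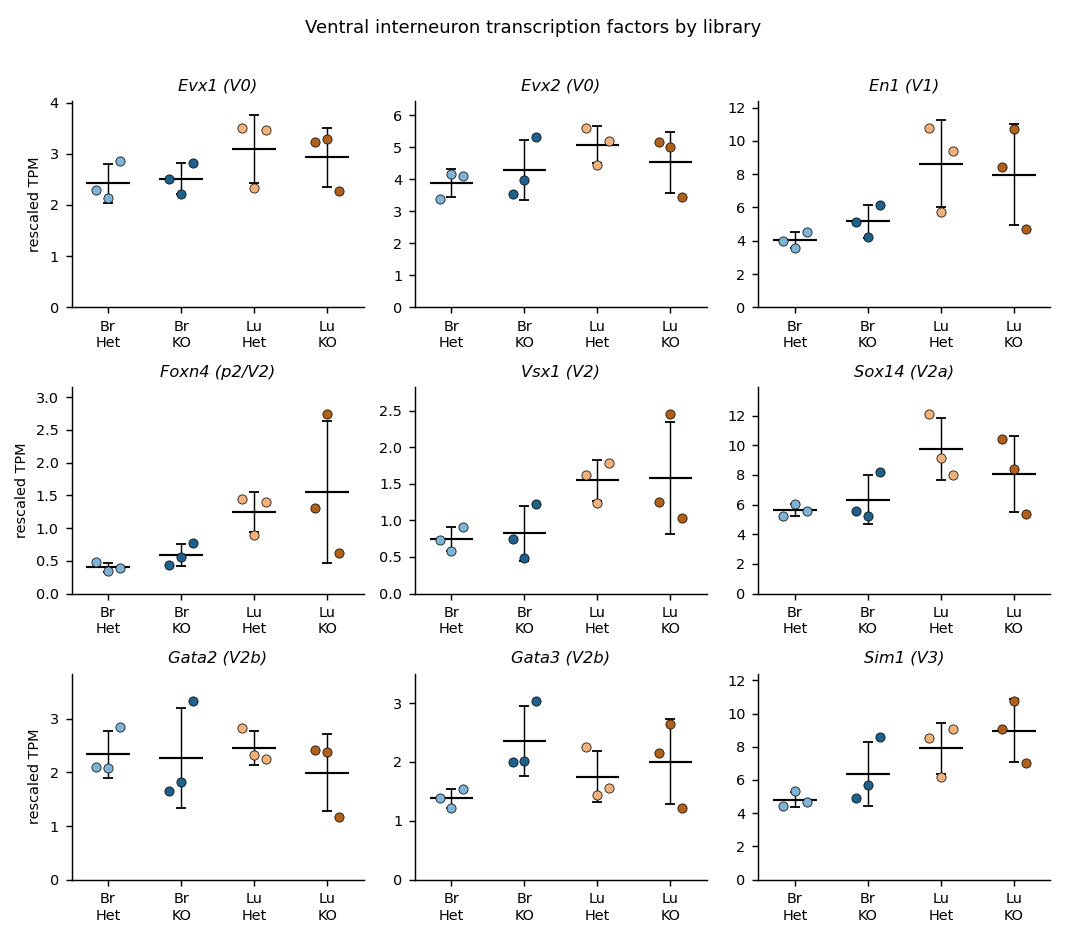
Rescaled TPM (y axis, from 0) of the 9 factors in each library, with brachial (Br) and lumbar (Lu) heterozygote (Het) and KO groups on the x axis. Each point is 1 library, placed left to right as replicates 1 to 3, and bars give the mean and SD of 3 libraries. *En1* is at 3.58 to 6.18 in the brachial and 4.71 to 10.8 in the lumbar libraries, while *Gata2* spans about the same range at both levels.

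The levels were compared over both genotypes with limma on log2(rescaled TPM + 0.1), 6 libraries against 6. The fit held the 4 group means, with the level difference averaged over both genotypes, and p-values were adjusted over all 16736 genes tested. Of the 9 factors 5 were called higher at the lumbar level and 0 lower. This count fell to 2 with no filter, with TPM as deposited or with the replicate number as a block, and to 1 without brachial KO 2 or without lumbar heterozygote 3, with *Foxn4* called whenever it was tested and *Sox14* in 9 of 24 alternatives. Of all genes tested, 18.2% were called in either direction and 8.68% higher. None of the 9 factors (0 of 9) separated the 2 levels without overlap, which 8.32% of all genes did. The median log2 difference of the 9 factors was 0.54, beside 0.012 over all genes. In bulk tissue, more cells of a class and more RNA per cell cannot be told apart.

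*En1*, a homeodomain repressor that defines V1 neurons, was at 4.01, 3.58, and 4.51 TPM in the brachial heterozygotes and at 5.15, 4.20, and 6.18 in the brachial KO libraries. At the lumbar level it was at 10.8, 5.72, and 9.38 in the heterozygotes and at 8.43, 10.7, and 4.71 in the KO libraries. Lumbar values were thus mostly higher, but lumbar heterozygote 2 and lumbar KO 3 fell within the brachial range. Its log2 difference was 0.79 (SE 0.21, adjusted p = 0.0214, limma), and an exact permutation test with the level labels exchanged within genotype (400 arrangements, two-sided) gave p = 0.02.

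*Foxn4*, a forkhead factor of V2 precursors, was at 0.481, 0.340, and 0.383 TPM in the brachial heterozygotes and at 0.437, 0.551, and 0.764 in the brachial KO libraries. It was at 1.45, 0.895, and 1.39 in the lumbar heterozygotes and at 1.3, 2.74, and 0.621 in the lumbar KO libraries. Only lumbar KO 3 lay below the highest brachial library, and lumbar KO 2 stood above all others. *Foxn4* had the largest log2 difference of the 9 factors, 1.24 (SE 0.30, adjusted p = 0.0156, limma; exact permutation p = 0.01).

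*Vsx1*, a paired-like homeodomain factor of the same precursors, was at 0.734, 0.582, and 0.909 TPM in the brachial heterozygotes and at 0.751, 0.487, and 1.23 in the brachial KO libraries. It was at 1.62, 1.24, and 1.79 in the lumbar heterozygotes and at 1.25, 2.45, and 1.03 in the lumbar KO libraries. The levels overlapped only through brachial KO 3 and lumbar KO 3, and the log2 difference was 0.91 (SE 0.25, adjusted p = 0.028, limma; exact permutation p = 0.01). With the 4 groups ordered by their means, *Foxn4* and *Vsx1* were the only factors of the 9 with neighbouring groups that did not overlap, the lumbar heterozygotes lying above all brachial KO libraries.

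*Sox14*, an HMG-box repressor of V2a neurons, was at 5.23, 6.03, and 5.58 TPM in the brachial heterozygotes and at 5.56, 5.23, and 8.23 in the brachial KO libraries. It was at 12.1, 9.15, and 8.03 in the lumbar heterozygotes and at 10.4, 8.41, and 5.34 in the lumbar KO libraries. Brachial KO 3 reached the lumbar heterozygotes, and lumbar KO 3 lay within the brachial values. The log2 difference was 0.54 (SE 0.17, adjusted p = 0.0464, limma; exact permutation p = 0.04).

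*Sim1*, a bHLH-PAS factor of V3 neurons, was at 4.42, 5.32, and 4.70 TPM in the brachial heterozygotes and at 4.89, 5.70, and 8.56 in the brachial KO libraries. It was at 8.5, 6.16, and 9.07 in the lumbar heterozygotes and at 9.09, 10.8, and 7 in the lumbar KO libraries. Apart from brachial KO 3, all brachial values lay below all lumbar ones. The log2 difference was 0.60 (SE 0.16, adjusted p = 0.0219, limma; exact permutation p = 0.015).

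The V0 genes *Evx1* and *Evx2*, even-skipped homeodomain factors, were not called between the levels. *Evx1* was at 2.14 to 2.86 TPM in the brachial libraries and at 2.27 to 3.5 in the lumbar ones, a log2 difference of 0.26 (95% interval −0.060 to 0.59, adjusted p = 0.244, limma). *Evx2* was at 3.40 to 5.34 and 3.44 to 5.6, a log2 difference of 0.23 (interval −0.069 to 0.52, adjusted p = 0.275). Both intervals include 0 and reach above 0.5. These genes lie beside *Hox* clusters, *Evx1* 52.6 kb from *Hoxa13* and *Evx2* 6.70 kb from *Hoxd13*. Of 10 neighbouring genes of both, 7 were tested and 4 were called higher at the lumbar level, *Hoxa10*, *Hoxa11*, *Hoxd10*, and *Hoxd11*, all near 0 in the brachial libraries (means of at most 0.335 TPM). The other 3, beyond the *Hox* genes, had similar means in the brachial and lumbar libraries and were not called, *Lnpk* (26 and 26.1 TPM), *Mtx2* (119 and 129), and *Hibadh* (31.2 and 29.0). Of the 3 not tested, *Hoxa13* was listed at 0 in all 12 libraries, *Hoxd13* did not exceed 0.307 TPM, and *Hoxd12* had means of 0 TPM in the brachial and 0.458 in the lumbar libraries. *Evx1os*, an antisense record over *Evx1*, was at 3.96 to 6.76 TPM in the brachial and 4.89 to 7.12 in the lumbar libraries. The library kit marks strand, but the strand setting of the abundance estimates was not given in the sources used here, so the share of *Evx1* signal from this transcript is unknown.

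The V2b genes did not differ between the levels beyond their spread. *Gata2*, a zinc-finger factor that also acts in blood and endothelial precursors, was at 1.65 to 3.34 TPM in the brachial and 1.17 to 2.82 in the lumbar libraries, a log2 difference of −0.050 (interval −0.53 to 0.43). *Gata3*, its paralog, was at 1.21 to 3.04 and 1.22 to 2.65, a log2 difference of 0.022 (interval −0.42 to 0.46). Records on the opposite strand overlap both genes, *Gm38708* at *Gata2* (0.158 to 0.703 TPM) and 4930412O13Rik at *Gata3* (0.211 to 0.529 TPM), and 9230102O04Rik overlaps *Gata3* on its own strand (0.328 to 1.64 TPM). 9230102O04Rik had a log2 difference of 0.91 between the levels (adjusted p = 0.0542, limma).

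**Figure D2:**
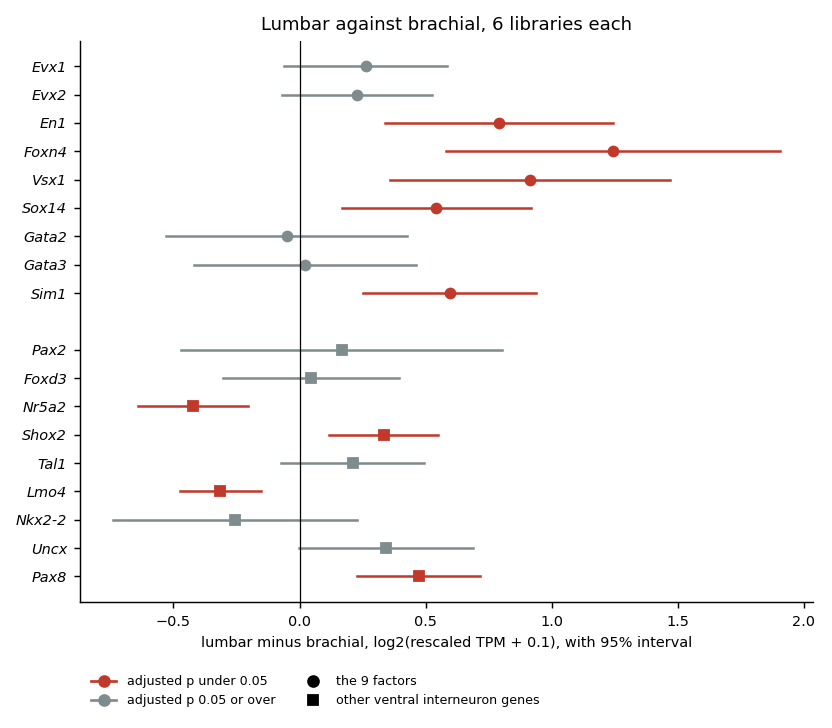
Lumbar minus brachial difference on the log2(rescaled TPM + 0.1) scale (x axis) with its 95% interval from limma, 6 libraries against 6, for the 9 factors (circles) and 9 other ventral interneuron genes (squares). Red marks an adjusted p under 0.05. Of the factors *Foxn4* (1.24) is farthest to the right and *Gata2* (−0.050) and *Gata3* (0.022) sit close to 0.

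Of 26 other genes of the same neuron classes, 2 were called higher and 2 lower at the lumbar level, with a median log2 difference of 0.14. *Shox2*, of a V2a subset, had a log2 difference of 0.33 (adjusted p = 0.0363, limma), but it was called in 11 of 24 alternatives and lost the call in 8 of 12 fits that left out a library (adjusted p of up to 0.24 over the alternatives). All 4 V2a genes of the list had positive differences, and *Shox2* was the one that passed. *Pax8*, of dorsal and ventral inhibitory neurons, was higher by 0.47 (adjusted p = 0.0131), whereas *Nr5a2*, listed with V1, fell by 0.42 (adjusted p = 0.0132) and *Lmo4*, a LIM-only cofactor listed with V2b, fell by 0.31 (adjusted p = 0.0134). *Tal1*, the partner of *Gata2* and *Gata3* in V2b cells, had a difference of 0.21 (adjusted p = 0.29) with 9.33 to 15.4 TPM over all libraries. *Pax2* (0.17) and *Foxd3* (0.046) of V1 cells, and *Nkx2-2* (−0.26) and *Uncx* (0.34) of the V3 lineage were not called either.

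Marker lists of other cells in the trimmed tissue were followed over the same libraries. The summed level of 20 ventral progenitor genes was 286 to 381 TPM in the brachial and 406 to 505 in the lumbar libraries with no overlap, and of the 19 tested, 8 were called higher and 1 (*Olig2*) lower. *Hes5*, a Notch target (0.52), *Dll1*, a Notch ligand (0.49), and *Neurog3*, a proneural factor (0.95), were among the 8. The largest terms of the sum were *Hes5* (means of 75.6 TPM brachial and 108 lumbar), *Sox2* (75.3 and 97.6), and *Dll1* (41.2 and 57.7). It therefore says little of smaller terms such as *Dbx1* (3.80 and 4.57), *Nkx6-1* (3.51 and 6.71), and *Nkx6-2* (12.7 and 13.0). Of the 19 tested, 17 had positive differences, with a median of 0.29. The summed level of 10 MN genes was 563 to 646 TPM in the brachial and 259 to 441 in the lumbar libraries, with 3 called lower, *Prph* (−2.62), *Slc5a7* (−1.10), and *Aldh1a2* (−0.49). Most of the change in this sum was *Prph*, at a mean of 285 TPM in the brachial and 48.6 in the lumbar libraries, and 5 of the 10 MN genes had positive differences, among them *Mnx1* (0.25, adjusted p = 0.223), *Isl2* (0.20, adjusted p = 0.257), and *Chat* (0.16, adjusted p = 0.414, all limma). Of 8 endothelial genes 3 were called lower (sums of 68.0 to 91.9 and 56.7 to 71.9 TPM), and of 6 mast and myeloid genes (5 tested) 2 were called lower (13.6 to 20.2 and 8.26 to 14.5 TPM). *Cpa3* of mast cells was at 0 in 9 libraries. Of 19 dorsal interneuron genes (17 tested), *Lhx9* was called higher and *Barhl1* and *Barhl2* lower, with sums that overlapped (75.3 to 126 and 68.0 to 124 TPM). None of the 6 erythroid genes tested (sums of 1458 to 4582 and 1418 to 3326 TPM) or of the 5 floor plate genes tested (184 to 239 and 167 to 247 TPM) was called. Of 5 sympathetic and chromaffin genes (3 tested) *Th* was called higher (9.25 to 10.6 and 9.93 to 13.8 TPM). Of 7 sensory ganglion genes (5 tested) *Runx1* was called lower (15.5 to 21.7 and 13.8 to 16.6 TPM), with *Runx3* at 0 in all 12 libraries, and of 7 mesenchyme and somite genes (2 tested) *Pdgfra* was called lower (6.59 to 9.44 and 5.90 to 7.41 TPM). Of the 4 skeletal muscle genes *Myod1* was at 0 in all 12 libraries, and their sum did not exceed 0.604 TPM. The part of these cells in the differences of the 9 factors was not tested.

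Within the heterozygotes, 3 libraries against 3, all 9 factors had positive lumbar minus brachial differences with a median of 0.69. *Sox14* passed the adjusted threshold (log2 difference 0.77, adjusted p = 0.048, limma), where 3.03% of all genes tested were called and 1% were called higher. It lost this call with no filter, TPM as deposited, no trend, the replicate block, and embryo sex as a term, and without any one library but lumbar heterozygote 3, while 5 factors were called with protein-coding genes only. For 6 of the 9 factors, *Evx2*, *En1*, *Foxn4*, *Vsx1*, *Sox14*, and *Sim1*, the 3 lumbar heterozygotes lay above the 3 brachial ones, as did 12.9% of all genes. For each of these 6 genes the exact permutation p was 0.1, the smallest that 3 against 3 allows. Within the KO libraries, 0 of 9 factors were called by limma and 0 had an unadjusted p under 0.05, where 1.73% and 23.8% of all genes did. Their differences were positive for 7 of 9 with a median of 0.32. No factor separated the KO groups, which 29.1% of all genes did. The largest KO differences were again those of *Foxn4* (1.08, interval −0.073 to 2.24) and *Vsx1* (0.85, interval −0.12 to 1.83).

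Whether the level difference itself was unequal between the genotypes was tested as an interaction over the 12 libraries. All 9 factors had a smaller lumbar minus brachial difference in the KO than in the heterozygote libraries, by 0.12 (*Vsx1*) to 0.56 (*Gata3*) on the log2 scale. None of the 9 was called by limma and none had an unadjusted p under 0.05, as was the case for 0% and 4.42% of all genes. The lowest adjusted p among the 9 was 0.812. The common sign depended on single libraries, since without lumbar KO 3 the interactions of *Evx1* (0.040), *Foxn4* (0.16), *Vsx1* (0.12), and *Gata2* (0.071) were positive, without brachial KO 3 those of *Vsx1* (0.18), *Gata2* (0.046), and *Sim1* (0.039), and without brachial heterozygote 2 that of *Vsx1* (0.021).

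Brachial KO 3 had the highest brachial value in 8 of the 9 factors, all but *Evx1*, and lumbar KO 3 had the lowest lumbar value in 8 of 9, all but *Sim1*. The summed level of the 9 factors was 24.0 to 27.4 TPM in the other 5 brachial libraries and 39.5 in brachial KO 3. It was 33.7 to 48.6 in the other 5 lumbar libraries and 26.8 in lumbar KO 3. Brachial KO 3 also had the least aligned sequence (4.48 Gb) and the highest erythroid sum (4582 TPM against 1418 to 3326 in the other 11 libraries). Lumbar KO 3 had the lowest MN sum of all libraries (259 TPM) and the highest dorsal interneuron sum of the lumbar level (124 TPM). The floor plate sum was 239 TPM in brachial KO 3, against 184 to 204 in the other brachial libraries. In lumbar KO 3 that sum was 167 TPM, against 195 to 247 in the other lumbar libraries. The part of these features in the values of the factors was not tested. Because these 2 libraries were picked from the values of the factors, leaving them out widens the level difference by construction. Without them, as a description added after the data were seen, the log2 differences were 1.03 for *En1*, 1.58 for *Foxn4*, 1.19 for *Vsx1*, 0.78 for *Sox14*, and 0.79 for *Sim1*.

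**Figure D3:**
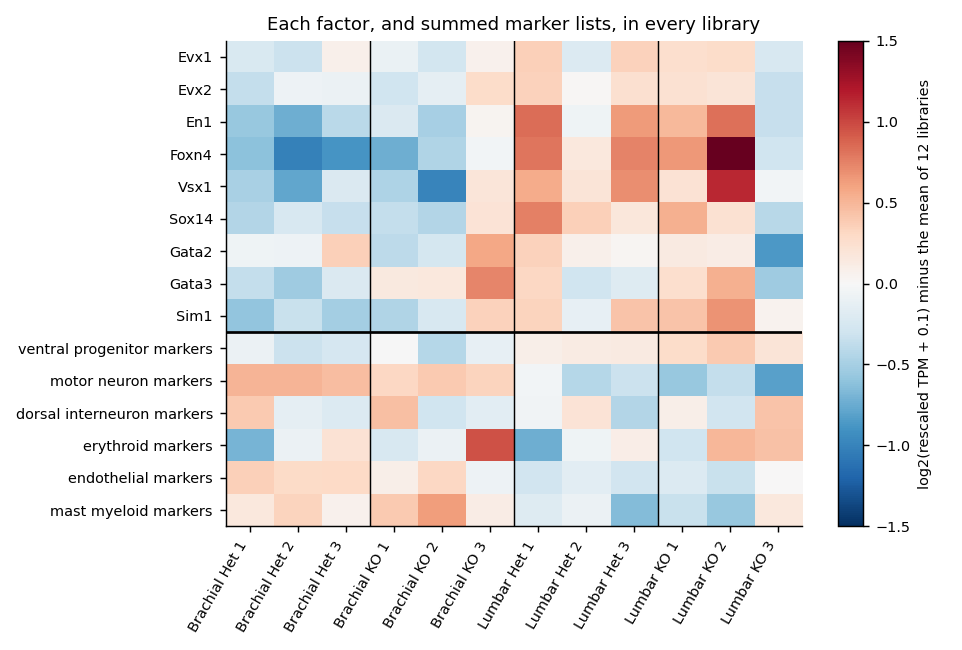
Each row is a factor or the summed TPM of a marker list, each column a library, and the color gives the log2(rescaled TPM + 0.1) value minus the row's mean over the 12 libraries (red above, blue below). Brachial KO 3 is the reddest brachial column and lumbar KO 3 the bluest lumbar column for the factors, with summed factor levels of 39.5 and 26.8 TPM.

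*Isl2* KO and heterozygote libraries were compared within each level to ask whether interneuron genes differed with the *Isl2* genotype. At the brachial level 0 of 9 factors passed the adjusted threshold in limma, as did 0.0059% of all genes, and 8 of 9 differences were positive with a median of 0.15, beside 8165 of 16935 over all genes. At the lumbar level 0 of 9 passed, as did 0% of all genes, 3 of 9 differences were positive, beside 7821 of 16511 over all genes, and the median was −0.074. Both tallies depended on single libraries. Without brachial KO 3, *Evx1* (−0.031), *Evx2* (−0.043), *Vsx1* (−0.23), and *Sox14* (−0.054) became negative and *Foxn4* fell under the filter, and without lumbar KO 3, *Evx1* (0.094), *Evx2* (0.0078), *En1* (0.19), and *Vsx1* (0.19) became positive. Without brachial heterozygote 2, *Evx1* (−0.029) and *Vsx1* (−0.073) also became negative, and the lumbar tally was 5 of 9 without heterozygote 1 or without heterozygote 3. The lumbar tally fell without lumbar KO 2, where *Foxn4* (−0.39) and *Gata3* (−0.075) became negative, and without lumbar heterozygote 2, where *Foxn4* (−0.098) did. The study's own criterion, given for genes lower in the KO, was an unadjusted p under 0.05 and a log2 difference below −0.5. In that direction 148 of 16935 genes met it in the brachial and 131 of 16511 in the lumbar libraries. Taken in both directions here, it was met by 3.1% of all genes in the brachial and 1.77% in the lumbar libraries. None of the 9 factors met it in the study's direction. Upward it was met by *Gata3* at the brachial level, where 2.23% of all genes met it upward, and by none at the lumbar level. There 0 of 9 had an unadjusted p under 0.05 and 0 of 9 separated the genotypes, beside 4.88% and 9.93% of all genes.

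*Gata3* was at 1.39, 1.21, and 1.54 TPM in the brachial heterozygotes and at 2, 2.02, and 3.04 in the brachial KO libraries. The 3 KO libraries lay above the 3 heterozygotes, as was the case for 9.67% of all genes at this level. The log2 difference was 0.71 (interval 0.17 to 1.24) with an unadjusted p of 0.0161 and an adjusted p of 0.359 in limma, and the exact permutation p was 0.1, the smallest possible. *Gata3* no longer met the criterion taken in both directions without brachial KO 3 (difference 0.52), without brachial heterozygote 2 (0.63) or with a pseudocount of 1 (0.48). With TPM as deposited 3 factors met it, and 2 did without brachial KO 1. At the lumbar level *Gata3* was at 2.25, 1.44, and 1.56 TPM in the heterozygotes and at 2.16, 2.65, and 1.22 in the KO libraries, which overlapped (log2 difference 0.15, interval −0.58 to 0.87).

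*Gata2*, the paralog of *Gata3*, was at 2.09, 2.08, and 2.84 TPM in the brachial heterozygotes and at 1.65, 1.82, and 3.34 in the brachial KO libraries (log2 difference −0.10, interval −0.77 to 0.58). At the lumbar level it was at 2.82, 2.32, and 2.24 in the heterozygotes and at 2.42, 2.38, and 1.17 in the KO libraries (−0.35, interval −1.03 to 0.32). The genotypes overlapped at both levels.

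The other 7 factors overlapped between the genotypes at both levels. Their brachial differences ran from 0.053 for *Evx1* to 0.43 for *Foxn4* (interval −0.37 to 1.23), with 0.34 for *En1* (−0.069 to 0.75) and 0.36 for *Sim1* (−0.12 to 0.85). Their lumbar differences ran from −0.30 for *Sox14* (interval −0.88 to 0.28) to 0.17 for *Sim1* (−0.29 to 0.63), with −0.14 for *En1* (−0.90 to 0.61). The lumbar intervals of all 7 include a difference of 0.5 in at least one direction.

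**Figure D4:**
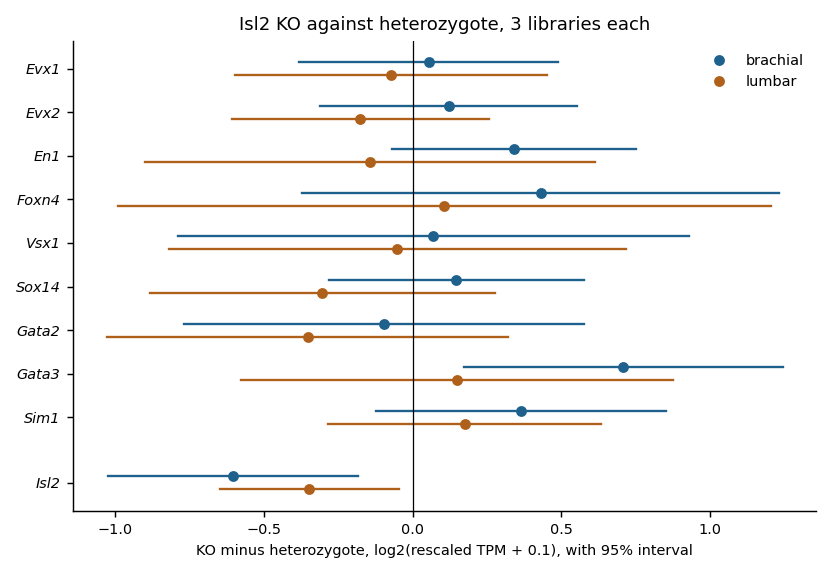
KO minus heterozygote difference on the log2(rescaled TPM + 0.1) scale (x axis) with its 95% interval from limma for the 9 factors and *Isl2*, 3 libraries against 3 at each level. The intervals of the factors include 0 except for *Gata3* at the brachial level (0.71, interval 0.17 to 1.24), while *Isl2* lies left of 0 at both levels (−0.61 and −0.35).

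Of the 26 other genes of these neuron classes, 0 were called at either level by the adjusted threshold in limma and 0 met the study's criterion. Their median KO minus heterozygote difference was 0.16 in the brachial and 0.0099 in the lumbar libraries, beside the medians of the 9 factors. *Shox2* had differences of −0.023 and −0.33. One of the 26 had an unadjusted p under 0.05 at each level, *Slc6a5*, the glycine transporter of inhibitory neurons, at the brachial and *Shox2* at the lumbar level, named after their values were seen, beside 13.8% and 4.88% of all genes. The sums of the ventral progenitor genes overlapped between genotypes at the brachial level (308 to 362 TPM in the heterozygotes and 286 to 381 in the KO libraries), whereas the lumbar sums did not (406 to 423 and 438 to 505 TPM). Among the largest terms of the lumbar sums were *Hes5* (means of 99.2 TPM in the heterozygotes and 118 in the KO libraries) and *Dll1* (54.0 and 61.5). Of the 19 progenitor genes tested at this level 12 had positive differences, with a median of 0.12 and 0 past the adjusted threshold. The MN sums were lower in every KO than in every heterozygote library at the brachial level (563 to 597 against 628 to 646 TPM) and overlapped at the lumbar level (259 to 355 against 339 to 441 TPM). At the brachial level this sum followed *Prph* (means of 310 TPM in the heterozygotes and 260 in the KO libraries), since 5 of the 10 MN genes had positive and 5 negative differences with a median of −0.051, 3 had an unadjusted p under 0.05, and 1 met the study's criterion. At the lumbar level all 10 differences were negative with a median of −0.33, and 4 had an unadjusted p under 0.05 while 0 passed the adjusted threshold in limma. Of these 10 genes 1, *Prph* (−0.78), met the study's criterion at the lumbar level. All 6 erythroid genes tested had positive differences at both levels, with medians of 0.45 and 0.63 and 0 past the adjusted threshold. Their sums overlapped between the genotypes, at 1458 to 2749 and 2005 to 4582 TPM at the brachial level and at 1418 to 2522 and 1916 to 3326 at the lumbar level. The part of these lists in the differences of the factors was not tested.

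The genotype groups differed in embryo sex at the lumbar level only, where Y-linked transcripts were absent from 2 of 3 heterozygote and 1 of 3 KO libraries. Within all 4 groups, the libraries without Y-linked transcripts were higher than those with them for *Evx1*, *En1*, *Vsx1*, and *Gata3*, 4 of the 9 factors, as was the case for 2.18% of all genes tested over the 12 libraries. Brachial KO 3 and lumbar KO 3, which stood apart, are on the corresponding sides of this split. *Evx1* and *Vsx1* each had a Pearson r of 0.91 with *En1* over the 12 libraries. These factors are therefore not separate cases, and the share over all genes takes no account of this. Among libraries with Y-linked transcripts alone (3 lumbar, 4 brachial) the lumbar minus brachial difference of mean log2 values was 0.53 for *En1*, 0.87 for *Foxn4*, 0.80 for *Vsx1*, 0.53 for *Sox14*, and 0.52 for *Sim1*. Among libraries without them (3 lumbar, 2 brachial) it was 0.95, 1.53, 0.81, 0.46, and 0.56 in the same order. With embryo sex as a term, added after the data were seen, 4 of the 5 genes were called, all but *Sox14* (log2 difference 0.51, adjusted p = 0.0658, limma).

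Genes of one class were set against each other within a level, 4 pairs at 2 levels and thus 8 relations, each over 6 libraries of both genotypes. *Evx1* and *Evx2* had a Pearson r of 0.89 at the lumbar level (exact permutation p = 0.00833, adjusted 0.0333) and a Spearman rho of 0.94 (p = 0.0167, adjusted 0.0667), and *Foxn4* and *Vsx1* had an r of 0.94 (exact permutation p = 0.00556, adjusted 0.0333) and a rho of 0.94 (p = 0.0167, adjusted 0.0667). Without the 2 libraries farthest from the median of the first gene, r was 0.73 and 0.71. *Gata2* and *Gata3* had an r of 0.72 at the lumbar level (exact permutation p = 0.0611, adjusted 0.163) and a rho of 0.77 (p = 0.103, adjusted 0.274), and r was 0.76 without those 2 libraries. *Foxn4* and *Gata2* had an r of 0.67 (exact permutation p = 0.117, adjusted 0.233) and a rho of 0.60 (p = 0.242, adjusted 0.483), with 0.44 without the 2 libraries. At the brachial level the 4 pairs had r between 0.37 and 0.50 and rho between 0.14 and 0.26 (exact permutation p from 0.347 to 0.481 for r, 0.463 to 0.481 adjusted, and from 0.658 to 0.803 for rho, 0.803 adjusted). All 4 brachial r values turned negative without the 2 libraries farthest from the median, brachial KO 3 with heterozygote 2 or 3, so each rested on its 2 libraries. Pairs from different classes were not tested within a level, so these values do not show a closer relation within a class than between classes.

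Over the 12 libraries and 13285 protein-coding genes tested, the genes whose log2 values followed each factor most closely were found by Pearson r, as a description without a test. These were *Lhx3* (0.94) and *Cenpt* (0.92) for *Evx1*, *Slit3* (0.92) and *Kif16b* (0.90) for *Evx2*, *Dpf2* (0.97) and *Lhx3* (0.96) for *En1*, *Ror2* (0.98) and *Prdm8* (0.96) for *Foxn4*, and *Neurod4* and *Cemip2* (both 0.97) for *Vsx1*. They were *Reep4* (0.93) and *Shh* (0.92) for *Sox14*, *Cdh11* (0.87) and *Bmp7* (0.83) for *Gata2*, *Uba1* and *Zkscan17* (both 0.92) for *Gata3*, and *Hic2* and *Prdm8* (both 0.95) for *Sim1*. Among the 9 themselves the closest partner was *En1* for *Evx1* (0.91), *Foxn4* (0.94), and *Vsx1* (0.91), *Sox14* for *Evx2* (0.88), *Foxn4* for *Sim1* (0.90), and *Evx2* for *Gata2* (0.74) and *Gata3* (0.62). These values share the level difference and the libraries that stood apart.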

How the data were processed

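Bulk RNA-seq was available for 12 libraries of E12.5 ventral spinal cord, grouped by the level and genotype in their labels. Libraries were made with a TruSeq Stranded Total RNA kit with Ribo-Zero from 500 ng of RNA. Per the labels and the paper, Trimmomatic 0.38 was used by the authors for trimming, HISAT2 2.1.0 and Bowtie2 2.3.4.1 for alignment to mm10, and StringTie 2.1.3b for abundances. The deposited TPM, a StringTie output of the authors, sums to a fixed total in each library. The deposited FPKM values come from the same run of the authors, and the deposited coverage values give mean per-base coverage of a gene. No counts were used here, so the count model of the study was replaced by limma, and the counting error of a single value is unknown.

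Symbols came from RefSeq (GRCm38.p6) for 45679 of 45777 gene identifiers, of which 96.2% had the same coordinates. The ratio of coverage to FPKM gave the aligned bases. Size factors from medians of ratios (0.893 to 1.25) rescaled the TPM, and a pseudocount of 0.1 preceded log2. Genes whose TPM as deposited averaged 0.5 or more in the libraries of a fit entered limma 3.58.1 (R 4.3.3, lmFit, trended eBayes). Benjamini-Hochberg adjustment was made over all genes tested, with a threshold of 0.05. The fits were tested on simulated data with noise drawn separately for each gene and library. Shifts shared by many genes of a library were not simulated, so this test does not cover them. KO was compared with heterozygote within each level, and levels over both genotypes and within each. Exact permutation tests were two-sided. Fold changes on this scale understate the change of low genes such as *Foxn4*. The p-values measure the spread between libraries, which the labels do not tie to embryos. The methods of the paper name 3 heterozygote and 3 homozygote animals for both levels, while its list of sample sizes gives 3 animals for each group.

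Named are the 9 factors, 6 fixed genes of their classes, other listed genes past the adjusted threshold (at most 4 for each list and comparison), the 2 closest genes of each factor, and genes that check level, genotype or overlap. Some genes of these lists are not reported here and were left out of the list counts, though not of the fits. The members, lists and tests were chosen with earlier results of these data known. Replicate numbers were not used to pair libraries. Alternatives were other pseudocounts, filters and scalings, FPKM, no trend, protein-coding genes only, the replicate number as a block, one fit of 12 libraries, and leaving out each library. Proteins and genome sequence beyond promoters were not used here. Tables were read with Python 3.11.15, pandas 2.3.3, scipy 1.17.1, and matplotlib 3.10.9.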

Additional observations from a re-analysis of the deposited data

How the results depend on the processing

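The 5 lumbar calls (En1, Foxn4, Vsx1, Sox14, Sim1) kept a positive difference under every alternative run. The number of factors called was 5 with pseudocounts of 1 and 0.01, quantile normalization, FPKM and protein-coding genes only, and 4 with a filter at 1 (which removes Foxn4), no trend and embryo sex as a term. It was 6, with Evx2 (0.40, adjusted p = 0.0304) as the sixth, without brachial KO 3 and lumbar KO 3. It was 2 with no filter, 2 with TPM as deposited, and 2 with the replicate number as a block, where En1 (adjusted p = 0.0438) and Foxn4 (0.0367) were called. It ran from 1 to 5 when a library was left out, with 1 without brachial KO 2 or lumbar heterozygote 3, 2 without brachial heterozygote 2 or lumbar KO 2, and 3 without brachial heterozygote 1 or lumbar heterozygote 1. Foxn4 was called in all 23 alternatives that tested it, En1 and Sim1 in 19, Vsx1 in 16, and Sox14 in 9 of 24. One of these alternatives, without brachial KO 3 and lumbar KO 3, raises the level differences and the interactions by construction. In the heterozygotes alone 1 factor was called, 0 with no filter, TPM as deposited or the sex term, 2 with FPKM, 5 with protein-coding genes only, and 0 to 2 with a library left out (0 without brachial heterozygote 1, 2 or 3 or lumbar heterozygote 1). By the study's criterion taken in both directions, 1 factor was called between brachial genotypes, 0 with a pseudocount of 1, and 3 with TPM as deposited. With a library left out it was 0 to 2 (0 without heterozygote 2 or KO 3, 2 without KO 1). The block changed no other count of calls. Same-numbered libraries were taken to share only a number, since their deviations from the group means correlated at −0.22 to 0.34 and 3 of 6 pairs of levels differed in sex. Whether brachial and lumbar libraries came from the same embryos under other numbers was not tested.

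The following differences changed sign. In KO minus heterozygote, brachial, quantile normalization gave −0.019 (Evx1) and −0.011 (Vsx1), and TPM as deposited 0.073 (Gata2). Lumbar, the sex term gave 0.064 (Evx1), 0.12 (En1), and 0.19 (Vsx1). Between levels over both genotypes, TPM as deposited gave −0.11 (Gata3) and −0.094 (Foxd3), the sex term −0.054 (Gata3), and leaving out brachial KO 3 and lumbar KO 3 0.27 (Gata2) and 0.0077 (Nkx2-2). In the heterozygotes the sex term gave −0.012 (Gata2). In the KO libraries TPM as deposited gave −0.015 (Evx1) and −0.14 (Evx2), and leaving out those libraries 0.45 (Gata2) and 0.24 (Gata3). The interaction then was 0.12 (Evx1), 0.051 (Evx2), 0.35 (Foxn4), 0.42 (Vsx1), 0.016 (Sox14), 0.37 (Gata2), and 0.20 (Sim1), and with the sex term 0.11 (Vsx1). Brachial correlations without 2 libraries were −0.91 (Gata2 with Gata3), −0.71 (Evx1 with Evx2), −0.95 (Foxn4 with Vsx1), and −0.63 (Foxn4 with Gata2).

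With a library left out, differences that changed sign ranged as follows. Between brachial genotypes they were Evx1 −0.031 to 0.17, Evx2 −0.043 to 0.24, Vsx1 −0.23 to 0.36, Sox14 −0.054 to 0.27, Gata2 −0.40 to 0.089, and between lumbar genotypes Evx1 −0.26 to 0.094, Evx2 −0.28 to 0.0078, En1 −0.41 to 0.19, Foxn4 −0.39 to 0.59, Vsx1 −0.40 to 0.19, Gata3 −0.075 to 0.46. Between levels they were Gata2 −0.14 to 0.11, Gata3 −0.090 to 0.18, Foxd3 −0.055 to 0.19 over both genotypes, Gata2 −0.020 to 0.22 in the heterozygotes, and Evx2 −0.043 to 0.26, Gata2 −0.36 to 0.15, Gata3 −0.48 to 0.049 in the KO libraries. Interactions were Evx1 −0.31 to 0.040, Foxn4 −0.82 to 0.16, Vsx1 −0.47 to 0.18, Gata2 −0.44 to 0.071, Sim1 −0.36 to 0.039. The causes were not tested. No interval for a single library is given, since no counts were used, and the depth behind a value of Foxn4 or Vsx1, near 1 TPM, is unknown.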
